A study of Mus musculus with 10 samples.

Results

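The genes described here encode the constitutive proteasome and were taken by name from the count table of a mouse B cell study. A gene was taken where its symbol began with Psma, Psmb, Psmc or Psmd and a digit, and where it held 10 or more counts in at least 2 of the 10 libraries. Of 45 such names, the 3 immunoproteasome genes and 5 names marked as pseudogenes were left out, and Psmb11 and Psma8 fell under the count minimum. Psma8, just outside it, reached 24 counts in 1 library and 8 or fewer in the others, and Psmd10, just inside it, held 0 to 218 counts. The rule gave 35 genes of 55492 symbols, 14 of them in the core (Psma and Psmb) and 21 in the cap (Psmc and Psmd). All 35 passed edgeR's filter on low counts and were tested.

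The proteasome is the protease complex that degrades proteins tagged with ubiquitin. Its core particle is a barrel of stacked rings, outer rings of alpha subunits (Psma) that gate the entrance and inner rings of beta subunits (Psmb), of which Psmb5, Psmb6 and Psmb7 carry the cutting sites. The cap that sits on the barrel has a base, with a ring of ATPases (Psmc) that unfold the substrate, and a lid of non-ATPase subunits (Psmd) that removes the ubiquitin. B cells that enter the germinal center reaction divide fast and take up protein synthesis, and lymphocytes also carry an immunoproteasome in which Psmb8, Psmb9 and Psmb10 take the place of the catalytic subunits.

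The libraries came from splenic B cells of mice with floxed Pcbp1 (fl/fl) and Mb1-Cre, a Cre driven from the Cd79a locus from early B cell development on, labelled KO, and of mice labelled WT. Naive B cells were taken on day 0 (2 WT and 2 KO libraries). Induced germinal center B cells (iGCB, 3 WT and 3 KO libraries) were taken on day 4 of culture on 40-LB feeders, a fibroblast line made to express CD40 ligand and the survival factor BAFF. Age and strain of the mice, the Cre status of the WT mice and the source of each library were not given in the sources used here, so p-values measure the spread between these libraries, which may in part be technical. Every iGCB library was cultured and every naive library was not, so culture and differentiation cannot be told apart.

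Libraries held 33400672 to 63576147 counts, and replicates differed by more than counting noise (chi-square per degree of freedom 24.4 to 236). Pcbp1 checked the genotype labels, with 9032 and 3327 counts (WT) and 266 and 20 (KO) in naive cells, and 5059, 11745 and 13220 (WT) and 130, 64 and 88 (KO) in iGCB cells. Cd79a, whose locus drives the Cre, stood at 1390 and 1170 CPM (WT) and 432 and 414 (KO) in naive cells. In iGCB cells it stood at 790, 822 and 773 CPM (WT) and 391, 438 and 342 (KO). KO and WT thus also differed in Cd79a RNA, and the part of Cre and Cd79a in KO against WT was not tested. Xist and Y-linked genes marked naive WT 1 and naive KO 1 as female and the other 8 libraries as male. All 6 iGCB libraries were thus male, so sex was not balanced between the stages. The part of sex in iGCB against naive was not tested. Of the naive markers, Ighd and Cr2 were lower in iGCB WT than in naive WT and Fcer2a was higher (log2 fold change 0.79, edgeR adjusted p = 0.00283). Of the activation and germinal center markers, Fas, Mki67 and Top2a were higher and Bcl6 was lower (-1.14, edgeR adjusted p = 0.00258). Summed fibroblast markers (8 genes) ran from 1.46 to 12.6 CPM in naive libraries, with Lum at 0 in all 4, and from 29.4 to 72.8 CPM in iGCB libraries. Summed myeloid markers (10 genes) ran from 46.9 to 340 CPM in naive and from 23.5 to 79.5 CPM in iGCB libraries, with S100a8 at 0 in all 6 iGCB libraries. Summed T cell markers (8 genes) ran from 11.5 to 62 and from 3.49 to 8.11 CPM, and erythroid and platelet markers (9 genes) from 31.3 to 219 and from 3.16 to 8.73 CPM, with Hba-a2 at 0 in all 6 iGCB libraries. The part of these other cells in the results below was not tested. In bulk RNA, a change in the number of cells of a type and a change in RNA per cell cannot be told apart.

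The proteasome genes took a larger share of the counts in iGCB than in naive libraries, in each of the 10 libraries without overlap. The 35 genes held 0.158% to 0.2% of all counts in the 4 naive libraries and 0.372% to 0.511% in the 6 iGCB libraries. CPM, counts scaled to the TMM-adjusted library totals, were summed. Over the 14 core genes the sums were 681 and 541 (WT) and 629 and 497 (KO) in naive cells, and 1593, 1670 and 2392 (WT) and 1643, 2026 and 1670 (KO) in iGCB cells. Over the 21 cap genes the sums were 1427 and 1037 (WT) and 1295 and 1042 (KO) in naive cells, and 2088, 2137 and 2883 (WT) and 2077, 2395 and 2114 (KO) in iGCB cells. The core therefore gained more than the cap: the ratio of core to cap counts lay between 0.477 and 0.522 in the naive libraries and between 0.763 and 0.846 in the iGCB libraries. Within iGCB cells, WT 3 and KO 2 had the highest sums, and within naive cells the female libraries WT 1 and KO 1 did. These orders ran through the whole set. iGCB WT 3 was the highest WT iGCB library for 34 of the 35 genes (31.7% of all genes tested), and iGCB KO 2 the highest KO iGCB library for 32 (32.8% of all genes). Naive WT 1 stood above WT 2 for 30 genes (46.4% of all genes) and naive KO 1 above KO 2 for 32 (47% of all genes). Sex was not their only difference. Naive WT 1 and KO 1 held 63576147 and 58983878 counts, against 39625752 and 41316698 for WT 2 and KO 2. Their summed activation and germinal center markers stood at 684 and 525 CPM, against 368 and 387. The part of sex, depth or cell state in this order was not tested.

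**Figure D1:**
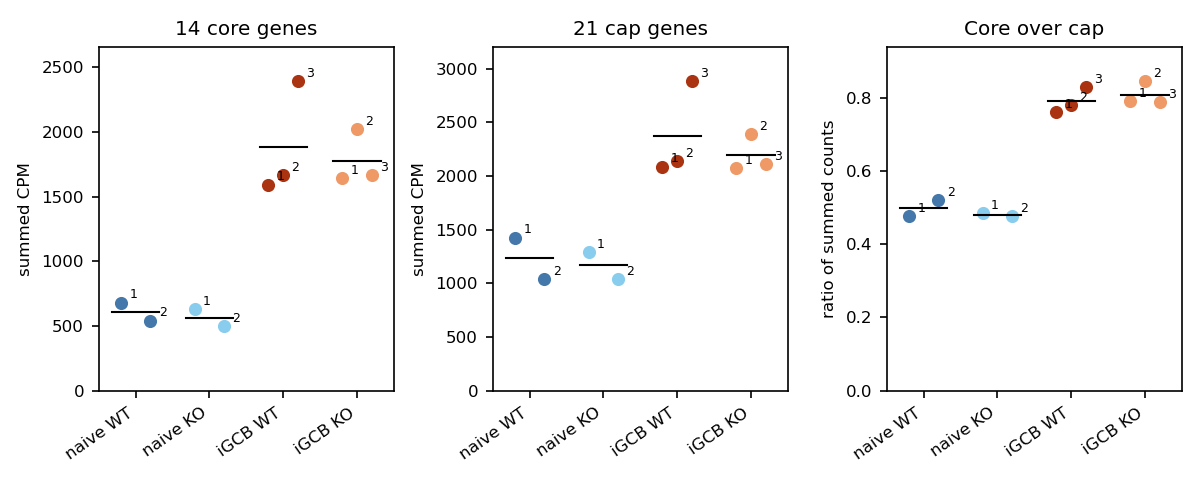
Summed CPM of the 14 core genes (left) and the 21 cap genes (middle), and the ratio of their summed counts (right), in each library. Points are libraries, numbered as in the labels, and lines are group means. All 6 iGCB libraries lie above all 4 naive libraries in each panel, with the core-to-cap ratio at 0.763 to 0.846 against 0.477 to 0.522.

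The comparison of iGCB with naive WT cells asks how these genes move as B cells pass into the germinal center-like state. Of the 35 genes, 29 were higher in iGCB cells, where 24.7% of all 21010 genes tested were higher, and 1 was lower, where 31.7% of all genes were (edgeR quasi-likelihood test, Benjamini-Hochberg adjusted p under 0.05). Among the 7198 genes with a mean of at least 20 CPM, a level that 33 of the 35 reached, 37.1% were higher in WT and 37.8% in KO. In WT that share varied with exonic length, at 63.8% for 1001 to 2000 bases, 51.4% for 2001 to 3000 and 47.4% for 3001 to 4000. These ranges held 5, 3 and 4 of the 14 core genes. For 6001 bases or more the share was 22.6%. All 14 core genes rose, with a median log2 fold change of 1.71 (3.27-fold). Of the 17 cap genes that encode subunits, 14 rose, with a median of 1.10 (2.14-fold), and over all 21 cap genes the median was 1.02. The median over all genes tested was -0.25. The KO transition, from the KO libraries in the same fit, gave nearly the same picture. In it 28 genes were higher (24.8% of all genes tested) and 0 lower (31.4%). All 14 core genes and 13 of the 17 cap subunit genes were among those higher, at medians of 1.73 and 1.08. The 27 genes higher in both made up 93.1% of the WT list and 96.4% of the KO list. Psmd1 and Psmc3 passed in WT alone and Psmc6 in KO alone, and for none of them did the difference of the KO effects pass the test. The WT and KO transitions are not fully independent, since 1 fit set the estimate of spread for both. Naive WT and KO libraries of the same number also deviated from their group means together (correlation 0.67). The difference between the core and cap medians was not tested.

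Single libraries moved these counts more in the cap than in the core. In WT, leaving out naive WT 2 left 13 core and 10 cap subunit genes higher, and leaving out iGCB WT 3 left 13 and 12. In KO, leaving out naive KO 2 left 12 core genes (without Psmb3 and Psmb6) and 8 cap subunit genes. In each of the 15 alternatives for either genotype the core median stayed above the cap subunit median, at 1.5 to 1.98 against 0.79 to 1.28 in WT and 1.59 to 1.94 against 0.95 to 1.21 in KO.

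**Figure D2:**
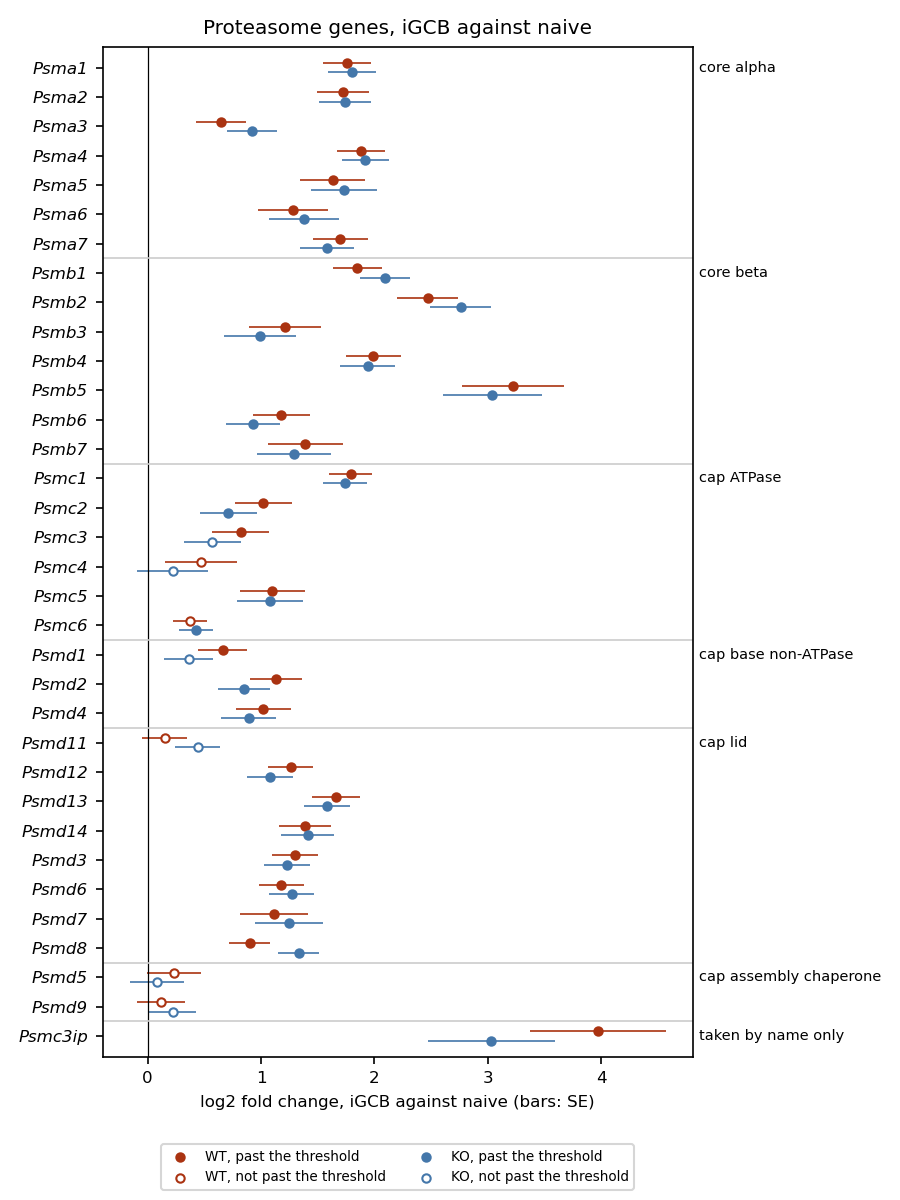
Log2 fold change of iGCB against naive for 34 genes, in WT (red) and KO (blue), with bars for the standard error (SE), grouped by role in the complex; filled points passed the adjusted p threshold. Psmd10, with fold changes that rest on libraries at 0, is not drawn. Core genes run from 0.65 (Psma3) to 3.22 (Psmb5) in WT, and cap subunits from 0.15 (Psmd11) to 1.79 (Psmc1).

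The catalytic subunits rose by very different amounts. Psmb5, which carries the chymotrypsin-like site, stood at 7.98 and 3.43 CPM (WT) and 6.92 and 3.58 (KO) in naive cells, and 44.3, 40.5 and 75.3 (WT) and 38.6, 51.1 and 40.2 (KO) in iGCB cells. Every iGCB library lay above every naive library, and its log2 fold change was the largest of the 31 subunit genes in both genotypes, 3.22 in WT (SE 0.45, adjusted p = 0.000164) and 3.04 in KO (SE 0.44, adjusted p = 0.000232). Psmb6, with the caspase-like site, stood at 50.5 and 43.4 CPM (WT) and 52.3 and 45.8 (KO) in naive cells, and 84.3, 87.6 and 148 (WT) and 86.1, 105 and 88.1 (KO) in iGCB cells. Its groups also lay apart, but its log2 fold change was 1.18 in WT (SE 0.25, adjusted p = 0.00222) and 0.93 in KO (SE 0.24, adjusted p = 0.00824). Psmb7, with the trypsin-like site, stood at 22.5 and 34.5 CPM (WT) and 20 and 29.7 (KO) in naive cells, and 52.5, 61.7 and 110 (WT) and 56.7, 71.1 and 54.8 (KO) in iGCB cells. It was the 1 catalytic gene with naive replicate 2 above replicate 1, and it rose by 1.39 in WT (SE 0.33, adjusted p = 0.00483) and by 1.29 in KO (SE 0.33, adjusted p = 0.00718). In KO, Psmb6 and Psmb7 each lost the call without a naive KO library (adjusted p = 0.0579 for Psmb6 without KO 2 and 0.0566 for Psmb7 without KO 1). In the annotation, Psmb5 shares 12.1% of its exonic bases with Mir686 and Psmb7 shares 11.8% with Nek6, and the strand setting of the counting is not given in the sources used here.

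In mm10 Psmb5 lies at chr14:54614119-54618022 on the minus strand and Psmb2 at chr4:126677630-126709714 on the plus strand. Among the non-catalytic beta subunits, Psmb2 changed most. It stood at 28 and 17 CPM (WT) and 20.5 and 15.3 (KO) in naive cells, and 102, 117 and 155 (WT) and 112, 127 and 126 (KO) in iGCB cells. Every iGCB library held at least 102 CPM and every naive library at most 28, a log2 fold change of 2.47 in WT (SE 0.27, adjusted p = 3.21e-05) and 2.76 in KO (SE 0.27, adjusted p = 1.83e-05). Psmb4 (1.99 in WT) and Psmb1 (1.85) followed on the log2 scale, and Psmb3 rose by 1.21 in WT, the least of the non-catalytic beta genes. The 7 beta genes together had a median log2 fold change of 1.85 in WT and 1.94 in KO.

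The alpha subunits rose by more similar amounts than the beta subunits. Of the 7 genes, Psma1, Psma2, Psma4, Psma5 and Psma7 had log2 fold changes between 1.63 and 1.88 in WT and between 1.58 and 1.92 in KO. Psma4, at the top of the alpha genes, stood at 47.7 and 38 CPM (WT) and 49.8 and 39 (KO) in naive cells, and 141, 148 and 184 (WT) and 152, 193 and 160 (KO) in iGCB cells, a log2 fold change of 1.88 in WT (SE 0.21, adjusted p = 3.38e-05). Psma6 rose by 1.28 in WT. Psma3 rose least. It stood at 60.8 and 77.7 CPM (WT) and 55.9 and 59.2 (KO) in naive cells, and 88.3, 96.4 and 142 (WT) and 95.6, 118 and 113 (KO) in iGCB cells. Its libraries did not overlap between the stages, and its log2 fold change of 0.65 in WT (SE 0.22, adjusted p = 0.0249) was not called without iGCB WT 3, without naive WT 1, under the replicate block or in the fit of these 2 groups alone. Psma3, Psma4 and Psma5 have near-identical copies elsewhere in the annotation (at least 95% identity over 200 bases or more), as do Psmb3, Psmb5, Psmc1, Psmd2 and Psmd11, and reads from copies could be split or dropped in counting. For Psma3 the copies that the table holds had 846, 32, 10 and 1 counts over the 10 libraries against 36048 for the gene.

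Of the 6 ATPase genes of the cap, 4 rose in each genotype, with medians of 0.92 and 0.64. Of all genes tested, 24.7% were higher in WT and 24.8% in KO, or 37.1% and 37.8% of those with a mean of at least 20 CPM. Psmc1 stood at 55.7 and 47.9 CPM (WT) and 50.1 and 41.5 (KO) in naive cells, and 162, 161 and 214 (WT) and 146, 171 and 141 (KO) in iGCB cells. Its groups lay far apart, and its log2 fold change of 1.79 in WT (SE 0.19, adjusted p = 3.07e-05) was the largest of the cap subunits. Psmc5 (1.10), Psmc2 (1.02) and Psmc3 (0.82) also rose in WT. Psmc4 and Psmc6, which sit in the same ATPase ring, did not pass in WT. Psmc4 stood at 107 and 50 CPM (WT) and 93 and 66.4 (KO) in naive cells, and 91.8, 89.8 and 143 (WT) and 81.9, 107 and 90 (KO) in iGCB cells. 1 naive WT replicate of Psmc4 lay within the iGCB range and the other below it, and the log2 fold change was 0.47 with a 95% interval from -0.23 to 1.16 (adjusted p = 0.224). Psmc6 was steady within groups, at 109 and 95.2 CPM (WT) and 96.4 and 101 (KO) in naive cells, and 123, 131 and 141 (WT) and 127, 148 and 124 (KO) in iGCB cells. Every iGCB library exceeded every naive library, by a log2 fold change of 0.37 in WT (SE 0.15, adjusted p = 0.0564) and 0.43 in KO (SE 0.15, adjusted p = 0.0311). Over the 6 ATPase genes the median log2 fold change was 0.92 in WT and 0.64 in KO.

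In the base, the scaffold subunits Psmd1 and Psmd2 and the ubiquitin receptor Psmd4 all rose in WT, by log2 fold changes of 0.66, 1.13 and 1.02. Psmd4 stood at 75.6 and 54.4 CPM (WT) and 70.9 and 54.2 (KO) in naive cells, and 108, 118 and 169 (WT) and 112, 131 and 104 (KO) in iGCB cells. The stages did not overlap (adjusted p = 0.00419 in WT and 0.00868 in KO), though without naive KO 2 the KO call was lost (0.71, adjusted p = 0.0793). In the lid, 7 of 8 genes rose in each genotype, with medians of 1.22 and 1.26. The shares over all genes tested were 24.7% in WT and 24.8% in KO, or 37.1% and 37.8% at a mean of at least 20 CPM. Psmd14, the deubiquitinase that cuts ubiquitin chains from the substrate, stood at 44.5 and 56 CPM (WT) and 47.6 and 47.5 (KO) in naive cells, and 107, 119 and 170 (WT) and 112, 151 and 115 (KO) in iGCB cells, a log2 fold change of 1.39 in WT (SE 0.23, adjusted p = 0.000531). Its inactive partner in the lid, Psmd7, rose by 1.11 in WT. Psmd13 had the largest lid fold, 1.66 in WT (SE 0.21, adjusted p = 7.78e-05), and shares 10.1% of its exonic bases with Sirt3. Psmd11 was the exception, at 128 and 96.7 CPM (WT) and 106 and 80 (KO) in naive cells, and 111, 113 and 149 (WT) and 116, 134 and 128 (KO) in iGCB cells. Its WT groups overlapped, and its log2 fold change was 0.15 in WT (95% interval -0.29 to 0.58, adjusted p = 0.544) and 0.44 in KO (adjusted p = 0.0813, or 0.0496 in the fit of the KO groups alone). A near-identical transcript, A730017L22Rik (97.9% identity), held 2476 counts over the 10 libraries against 48257 for Psmd11.

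Across the 31 subunit genes, all 6 iGCB libraries exceeded all 4 naive libraries for 29, the exceptions being Psmc4 and Psmd11. The same held for 25.5% of all genes tested.

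**Figure D3:**
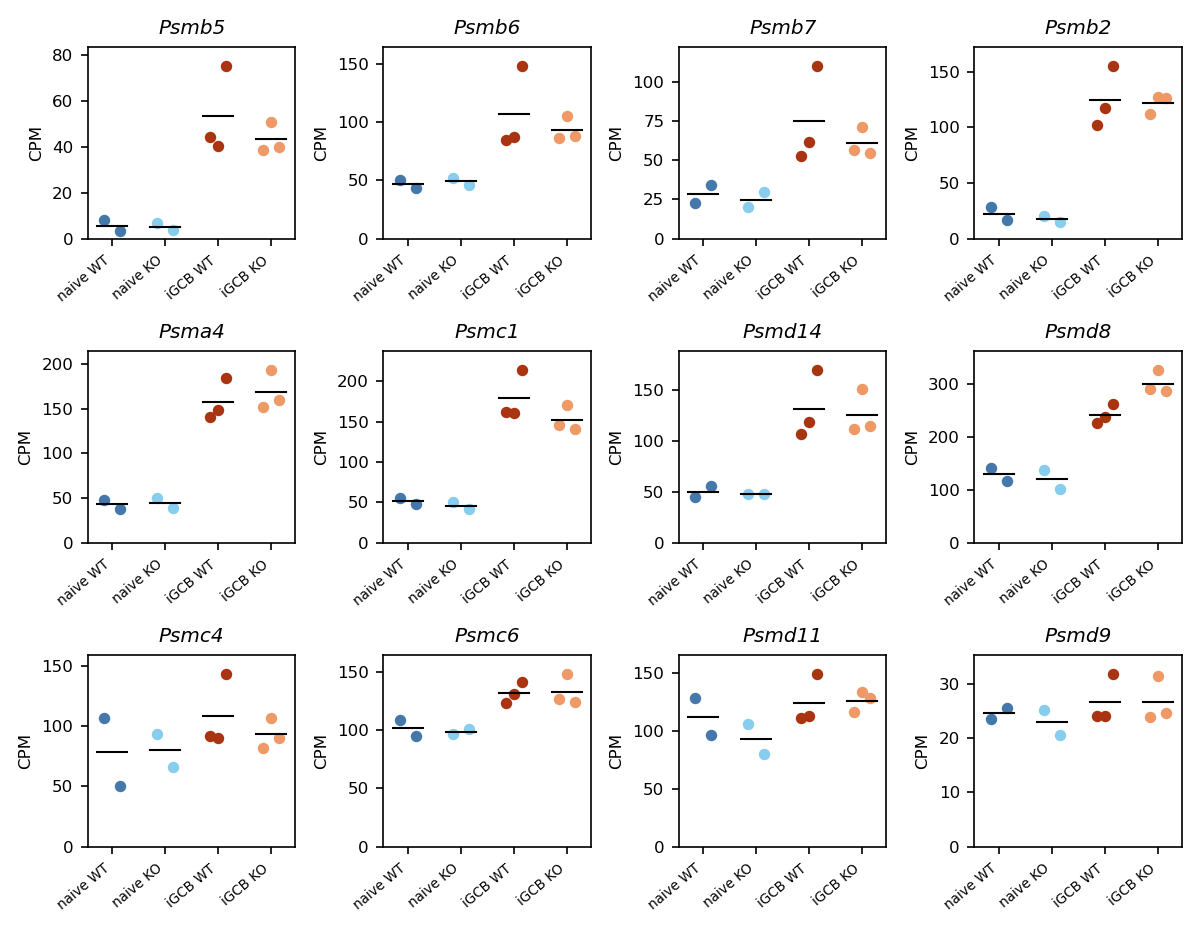
CPM of 12 genes in each library (points) with group means (lines), every axis starting at 0. Psmb5, Psmb2, Psma4 and Psmc1 show iGCB libraries well above every naive library, Psmd8 shows iGCB KO libraries above iGCB WT libraries, and Psmc4, Psmd11 and Psmd9 overlap between stages.

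None of the 3 assembly chaperones was called higher, where 24.7% of all genes tested were in WT and 24.8% in KO. Psmd5, Psmd9 and Psmd10 escort the ATPases while the base is put together and are not part of the finished complex. Psmd9 stood at 23.5 and 25.6 CPM (WT) and 25.2 and 20.6 (KO) in naive cells, and 24.1, 24 and 31.8 (WT) and 23.9, 31.5 and 24.6 (KO) in iGCB cells. Its stages overlapped, with a log2 fold change of 0.12 in WT (95% interval -0.34 to 0.58, adjusted p = 0.635), and it shares 25.5% of its exonic bases with Gm26745. Psmd5 stood at 51.3 and 26.6 CPM (WT) and 46.3 and 37.5 (KO) in naive cells, and 43.8, 46.4 and 46.8 (WT) and 42.1, 45.3 and 45.1 (KO) in iGCB cells. The iGCB libraries of Psmd5 agreed closely while the naive WT libraries did not, and its log2 fold change was 0.23 in WT (adjusted p = 0.427), or 0.78 (adjusted p = 0.00778) without naive WT 1. Psmd10, at chrX:140948429-140956728 on the minus strand (mm10), was near absent and erratic, with 0 and 94 counts (WT) and 218 and 56 (KO) in naive cells, and 0, 0 and 0 (WT) and 0, 3 and 90 (KO) in iGCB cells. Replicates of Psmd10 differed as much as groups did. It was the 1 gene called lower in WT (adjusted p = 0.0474), on the counts of naive WT 2, and no fold is given because 3 counts over the iGCB WT libraries is a floor of 0.0271 CPM and 1 of the naive WT libraries was itself at 0.

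Psmc3ip was taken by its name alone. It encodes a partner of the recombinases of meiosis, not a proteasome subunit. It stood at 1.7 and 0.504 CPM (WT) and 2.7 and 0.941 (KO) in naive cells, and 18.2, 12.4 and 22.3 (WT) and 12.7, 15.9 and 16.6 (KO) in iGCB cells. The stages lay far apart, with log2 fold changes of 3.97 in WT (SE 0.60, adjusted p = 0.000282) and 3.03 in KO (SE 0.56, adjusted p = 0.00111), and 21.2% of its exonic bases overlap Mlx.

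Levels can be compared between genes only per length. On CPM per kb of exonic length, the median of the 14 core genes was 18 in naive WT and 15.7 in naive KO, under the 20.7 and 17.5 of the 17 cap subunit genes. In iGCB cells the core median was 58.1 in WT and 52.7 in KO, above the cap medians of 44.4 and 41.2. The order of the medians was the same in each of the 4 naive and each of the 6 iGCB libraries. It depended on the length used: divided by the median length of a gene's coding transcripts, the core median was above the cap median also in naive cells, 41.9 against 37.8 in WT and 39.1 against 33.5 in KO. By either length Psmb5 had the lowest level per kb of the core genes in naive cells, 6.35 CPM per kb of exonic length in WT against 46.8 for Psma6, the highest. In iGCB cells Psmb5 was no longer the lowest, and the highest core gene exceeded the lowest 5.23-fold in WT, against 7.37-fold in naive WT.

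Core genes are also shorter than cap subunit genes, with a median exonic length of 2335 against 2820 bases. Across the 35 genes the WT fold change ran down with length (Spearman rho -0.41), and within the 14 core genes the rho was -0.29 and within the 17 cap subunit genes -0.25. Over all 20475 genes with a length the rho was 0.11. Among genes with a mean of at least 20 CPM, the WT median log2 fold change was 1.06 for lengths of 1001 to 2000 bases. It was 0.62 for 2001 to 3000, 0.47 for 3001 to 4000, 0.20 for 4001 to 6000 and -0.31 for 6001 or more. The last range held 4 cap genes (Psmd1, Psmd5, Psmd9 and Psmd11) and 0 core genes. These values are across genes that share the same libraries, and the part of length in the core and cap difference was not tested.

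Promoter sequence was a property that the choice of genes did not use. RefSeq windows of 300 bases, 250 before and 50 after an annotated start, were at hand for 29 of the 35 genes (not for Psmb1, Psmb2, Psmb7, Psmc3, Psmd3 and Psmd7). Each window was searched on both strands for CCGGAAG, a core of sites bound by ETS factors, for CCAAT, the box of NF-Y, for TGACNNNGC, the antioxidant response element that Nfe2l1 and its relatives bind, and for CACGTG, an E-box. The ETS motif was found for 9 of 14 cap subunit genes (Psmc1, Psmc2, Psmc6, Psmd2, Psmd4, Psmd6, Psmd11, Psmd12 and Psmd13) and for 1 of 11 core genes (Psma6). Psma6 and Psmc2 had more than 1 window, and a gene counted with a match in any of them. By window, the ETS motif lay in 10 of 15 (66.7%) for the cap subunits and 1 of 12 (8.33%) for the core. It lay in 8.86% of all 32851 windows and in 15.3% of the 15538 windows of genes tested. The 4 windows below come from cap genes that span the folds of the class, from Psmc1 and Psmd13, which rose most, to Psmc6 and Psmd11, which did not pass in WT. Capitals mark the motif in either orientation, and also CCAAT in Psmc1 and TGACNNNGC, read on the other strand, in Psmc6.
Psmc1 promoter, GRCm38.p6 chr12:100109952-100110251, plus strand: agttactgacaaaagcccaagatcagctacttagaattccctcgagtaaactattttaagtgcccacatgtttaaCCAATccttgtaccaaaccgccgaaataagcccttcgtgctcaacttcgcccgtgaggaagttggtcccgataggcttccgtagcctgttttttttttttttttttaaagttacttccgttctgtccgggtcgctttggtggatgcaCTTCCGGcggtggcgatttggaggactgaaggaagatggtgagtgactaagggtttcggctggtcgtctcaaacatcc
Psmd13 promoter, GRCm38.p6 chr7:140882144-140882443, plus strand: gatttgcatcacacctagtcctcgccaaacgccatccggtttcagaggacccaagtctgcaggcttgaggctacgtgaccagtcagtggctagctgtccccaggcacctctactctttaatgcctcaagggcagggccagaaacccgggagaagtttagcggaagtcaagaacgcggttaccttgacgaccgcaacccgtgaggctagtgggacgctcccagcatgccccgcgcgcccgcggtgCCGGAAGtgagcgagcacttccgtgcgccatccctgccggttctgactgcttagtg
Psmc6 promoter, GRCm38.p6 chr14:45329574-45329873, plus strand: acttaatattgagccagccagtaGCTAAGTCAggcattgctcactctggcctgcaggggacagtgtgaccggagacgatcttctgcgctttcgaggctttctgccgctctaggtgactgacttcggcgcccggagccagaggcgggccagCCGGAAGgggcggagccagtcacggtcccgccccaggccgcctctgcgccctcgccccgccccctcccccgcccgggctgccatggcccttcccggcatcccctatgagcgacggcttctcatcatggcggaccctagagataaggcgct
Psmd11 promoter, GRCm38.p6 chr11:80428365-80428664, plus strand: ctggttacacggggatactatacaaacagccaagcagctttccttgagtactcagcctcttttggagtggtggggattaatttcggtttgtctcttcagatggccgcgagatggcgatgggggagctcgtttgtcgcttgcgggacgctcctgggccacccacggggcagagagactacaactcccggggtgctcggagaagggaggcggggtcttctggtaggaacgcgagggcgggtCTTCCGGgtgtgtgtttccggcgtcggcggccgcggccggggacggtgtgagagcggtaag
The same letters thus stood within the window of genes at both ends of the range. Cap subunit genes with the motif had a median log2 fold change in WT of 1.13 (9 genes, 0.15 to 1.79) and those without it 0.90 (5 genes, 0.47 to 1.39).

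In the core windows, CCAAT was the most frequent of the 4 motifs, found for 6 of 11 genes (Psma1, Psma2, Psma3, Psma6, Psma7 and Psmb3) and for 4 of 14 cap subunit genes (Psmc1, Psmc2, Psmd4 and Psmd14). Psma6 held CCAAT and the ETS motif in different windows. By window, CCAAT lay in 6 of 12 (50%) for the core and 4 of 15 (26.7%) for the cap subunits, against 37.4% of all windows. The core genes with it had a median log2 fold change of 1.49 and those without it 1.88. Of the subunit genes, Psmb5, Psmb6, Psmc6 and Psmd12 held the antioxidant response element, 2 in the core and 2 in the cap, as did 14.3% of the windows of genes tested. The E-box was found for Psma4 alone of the subunit genes, and in 9.25% of those windows. The chaperone Psmd9 held both of these motifs. The windows of Psma1, which holds CCAAT in both orientations, and of Psmb5, the core gene with the largest fold, are shown with CCAAT and TGACNNNGC in capitals.
Psma1 promoter, GRCm38.p6 chr7:114276067-114276366, minus strand: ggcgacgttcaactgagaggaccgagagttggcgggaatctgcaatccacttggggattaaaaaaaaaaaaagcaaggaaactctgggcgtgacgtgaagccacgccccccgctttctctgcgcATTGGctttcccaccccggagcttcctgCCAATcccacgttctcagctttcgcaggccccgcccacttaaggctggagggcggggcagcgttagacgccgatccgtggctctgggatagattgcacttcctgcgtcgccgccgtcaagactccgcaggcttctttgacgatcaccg
Psmb5 promoter, GRCm38.p6 chr14:54617946-54618245, minus strand: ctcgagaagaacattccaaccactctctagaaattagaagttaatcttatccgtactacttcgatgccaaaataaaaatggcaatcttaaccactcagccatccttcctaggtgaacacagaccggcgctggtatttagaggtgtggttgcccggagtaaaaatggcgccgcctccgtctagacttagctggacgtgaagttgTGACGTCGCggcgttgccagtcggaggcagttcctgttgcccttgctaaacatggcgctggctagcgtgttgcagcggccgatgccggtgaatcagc
Psmb6, whose window also matched TGACNNNGC, had the smallest fold of the beta genes in WT. These matches are descriptions of letters in a window and not of binding.

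**Figure D4:**
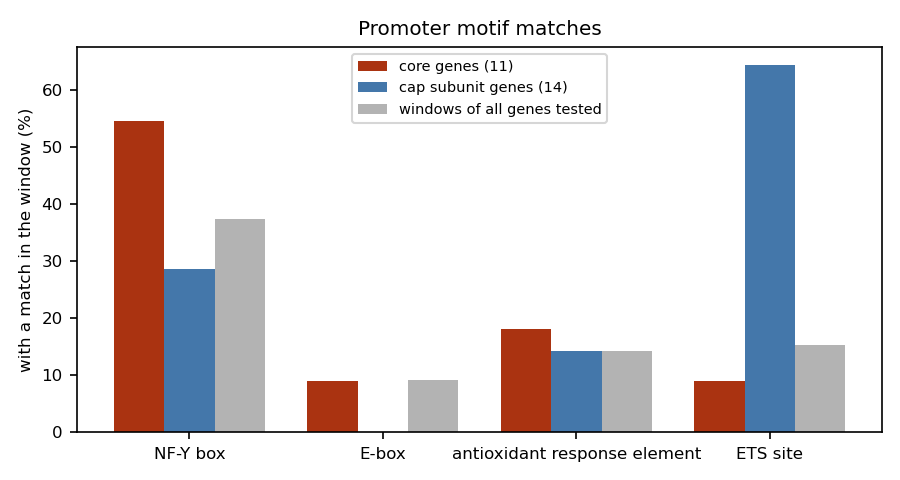
Share of genes whose promoter window holds each motif on either strand, for 11 core genes (red) and 14 cap subunit genes (blue), beside the share of the 15538 windows of all genes tested (grey). The ETS bar of the cap (9 of 14 genes) stands above that of the core (1 of 11) and the grey bar (15.3%).

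None of the 35 genes passed the threshold for KO against WT at either stage. In naive cells 0 genes were called, where 0.0476% of all genes tested were (edgeR), and 0 had an unadjusted p under 0.05, against 1166 of all genes. Pcbp1, the floxed gene, did not pass in naive cells either (log2 fold change -5.59, SE 0.82, edgeR adjusted p = 0.0561). Its KO libraries all lay below its WT libraries, so a gene without a call at this stage can still differ. The median log2 fold change of KO against WT was -0.15 for the core and -0.08 for the cap subunits. The 95% intervals of the 31 subunit genes all lay between -1.08 and 0.83, and the widest belonged to Psmb5. The members with the smallest p on the lower side were Psmd11 (-0.27, adjusted p = 1) and Psmb2 (-0.33, adjusted p = 1), and on the higher side Psmc3ip (0.71, adjusted p = 1) and Psmd10, for which no fold is given. All 4 had overlapping groups. Psma3 was the 1 gene with both KO libraries under both WT libraries, at 60.8 and 77.7 CPM in WT and 55.9 and 59.2 in KO (-0.27, adjusted p = 1), as 12.7% of all genes were. Within the female pair the median was -0.11 for the core and -0.14 for the cap, and within the male pair -0.14 and 0.04. The core median moved to 0.13 without naive WT 1.

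In iGCB cells 0 of the 35 genes were called either, where 1.27% of all genes tested were, and 1 (Psmd10) had an unadjusted p under 0.05, against 2051 of all genes. The median log2 fold change was -0.11 for the core and -0.19 for the cap subunits, and the 95% intervals of the subunit genes lay between -1.06 and 0.66. Psmd8, a lid subunit, was the 1 gene with all KO libraries above all WT libraries, at 226, 239 and 263 CPM for WT and 291, 327 and 287 for KO, where 10.2% of all genes had groups apart in that direction. In naive cells Psmd8 stood at 142 and 117 CPM in WT and 138 and 102 in KO, so the groups overlapped there. Its log2 fold change in iGCB cells was 0.32 (SE 0.16, adjusted p = 0.564), and the difference of its KO effects between the stages was 0.43 (SE 0.25, adjusted p = 0.911). Psmd1 (-0.34, adjusted p = 0.629) and Psmc3 (-0.35, adjusted p = 0.687) had the smallest p on the lower side. Psmd1 stood at 101, 104 and 142 CPM for WT and 84.8, 83.6 and 105 for KO, and Psmc3 at 123, 129 and 189 in WT and 112, 128 and 106 in KO, so the groups overlapped for both.

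The difference of the KO effects between the stages passed the threshold for no member (0 called, where 0.0333% of all genes were; 0 with an unadjusted p under 0.05, against 1273 of all genes). DESeq2 likewise called 0 members in each of these 3 comparisons. Without the low-count filter, Psmd10, with its erratic counts, was called higher for KO against WT in iGCB cells (adjusted p = 5.14e-07) and for the difference of the KO effects (adjusted p = 0.007). KO effects within the intervals given were not detectable with these libraries, and their absence is not shown. The comparisons of KO with WT at each stage and of iGCB with naive in each genotype share libraries and are not independent of each other.

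**Figure D5:**
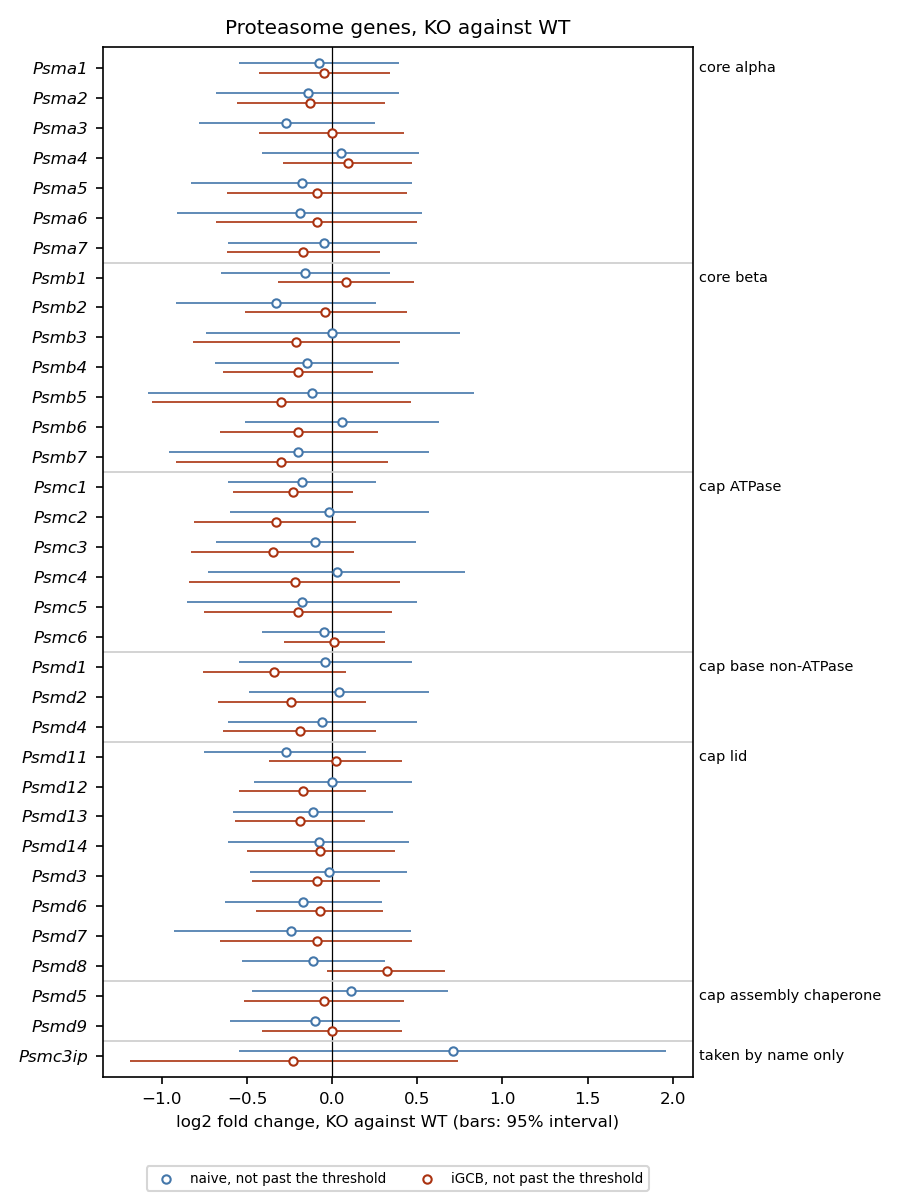
Log2 fold change of KO against WT for 34 genes in naive (blue) and iGCB (red) cells, with 95% intervals; Psmd10 is not drawn. No gene passed the threshold, subunit intervals lie between -1.08 and 0.83, and Psmd8 in iGCB cells (0.32) lies farthest to the right among the subunits.

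Other genes of the pathway, from lists drawn up by role, moved in different directions between the stages. Of the 3 immunoproteasome genes, Psmb8 rose by a log2 fold change of 1.79 in WT (SE 0.32, adjusted p = 0.000934) and Psmb9 by 1.07 (SE 0.31, adjusted p = 0.0129), while Psmb10 had 0.72 (SE 0.31, adjusted p = 0.0672). In KO, Psmb8 rose by 1.74 and Psmb9 by 0.96, and Psmb10 had 0.75 (adjusted p = 0.0574). The Psmb9 call was lost in WT under the replicate block (0.83, adjusted p = 0.057) and without naive WT 2 (0.71, adjusted p = 0.104), and in KO without naive KO 2 (0.71, adjusted p = 0.149), iGCB KO 2 or iGCB KO 3. Psmb10 passed in WT with scaling by library size alone, without the low-count filter (0.79, adjusted p = 0.00675), without naive WT 1 (1.29, adjusted p = 0.0074) and without iGCB WT 1. In KO it passed without the low-count filter, in the fit of the KO groups alone, and without naive WT 1, naive WT 2 or iGCB WT 3. Psmb8 stood at 52.2 and 29.2 CPM (WT) and 46.9 and 28.7 (KO) in naive cells, and 108, 126 and 188 (WT) and 117, 145 and 117 (KO) in iGCB cells. The 3 immunoproteasome genes together made up 49.7% to 64.5% of the CPM of both catalytic sets in naive libraries and 53.4% to 57.8% in iGCB libraries, so the ranges overlapped. These shares were not corrected for gene length, so they do not compare transcript numbers between the immunoproteasome and constitutive genes.

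All 5 core assembly genes measured rose in both genotypes, where 24.7% of all genes tested were higher in WT and 24.8% in KO. Psmg2, a chaperone of the alpha ring, rose by 2.22 in WT (SE 0.24, adjusted p = 2.83e-05) and Pomp, which guides the beta subunits into place, by 1.19 (SE 0.22, adjusted p = 0.000951). Psmg1, the partner of Psmg2, rose by 1.31 in WT (adjusted p = 0.0113), a call lost under the replicate block (0.83, adjusted p = 0.0766). Of 7 other cap subunits and enzymes that bind the cap, 4 rose in each genotype, beside the same shares of all genes. The largest folds in WT belonged to Uchl5, a deubiquitinase held at the cap (1.81, adjusted p = 4.79e-05), and Txnl1, a thioredoxin-like protein of the cap (1.42, adjusted p = 0.000114).

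Of the alternative activators and their inhibitor, Psme2 (1.41, adjusted p = 0.0027) and Psme4 (1.06, adjusted p = 0.000444) rose in WT and Psme3, the nuclear activator, fell (-0.94, adjusted p = 0.00396). Psme1, the partner of Psme2 in the same ring, had -0.24 (adjusted p = 0.441), at 247 and 152 CPM (WT) and 196 and 138 (KO) in naive cells, and 130, 165 and 212 (WT) and 146, 175 and 143 (KO) in iGCB cells. Its libraries overlapped between the stages. In KO, Psme2 rose by 1.67 and Psme4 by 0.63, and Psme3 fell (-0.77), a call lost without naive KO 1 (-0.55, adjusted p = 0.109).

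None of the 6 shuttle factors, which carry ubiquitin-tagged proteins to the cap, rose. Of all genes tested, 24.7% were higher in WT and 24.8% in KO. Ubqln2 fell in WT (-0.54, adjusted p = 0.0139), but not past the threshold in KO (-0.34, adjusted p = 0.0872), and its WT call was lost in 4 of the alternatives. Of 10 genes that control proteasome genes or proteasome abundance, 3 rose and 5 fell in each genotype, where 24.7% of all genes were called higher and 31.7% lower in WT, and 24.8% and 31.4% in KO. Vcp, the ATPase that extracts ubiquitin-tagged proteins, rose by 2.04 (adjusted p = 3.81e-05) and Nfyb, a subunit of NF-Y, by 1.37 (adjusted p = 0.000343), while Nfe2l2 (-1.04), Ngly1 (-0.73), Nfyc (-0.76), Zfand5 (-1.23) and Zfand2a (-1.18) fell in WT. Nfe2l1, the factor that raises proteasome genes when proteasome activity falls short, stood at 164 and 100 CPM (WT) and 140 and 134 (KO) in naive cells, and 105, 113 and 122 (WT) and 91.4, 90.4 and 99.4 (KO) in iGCB cells. It overlapped between the stages in WT (-0.22, adjusted p = 0.346, or -0.54 and 0.0237 without naive WT 2) and fell in KO (-0.55, adjusted p = 0.0304), a call lost under the replicate block and without 5 of the libraries in turn. Among the ubiquitin supply genes, Rps27a (2.77 in WT, adjusted p = 3.81e-05) and Ubb (1.04, adjusted p = 0.00129) rose in each genotype. Rps27a encodes ubiquitin fused to a ribosomal protein and belongs to a family with many pseudogene copies, so its counts are uncertain. In the fit over all groups, no gene of these 7 lists passed the threshold for KO against WT at either stage or for the difference of the KO effects. Psme4, singled out after its values were seen, came nearest, at 266, 211 and 217 CPM for WT and 159, 127 and 142 for KO in iGCB cells (log2 fold change -0.70, SE 0.15, adjusted p = 0.0504). These groups did not overlap. Psme4 passed with DESeq2 (-0.70, adjusted p = 0.00108), without the low-count filter (-0.73, adjusted p = 0.00727), under the replicate block (-0.69, adjusted p = 0.0136), in the fit of the iGCB groups alone (-0.69, adjusted p = 0.0118), and without naive WT 1 or naive WT 2. Psme4 did not pass with scaling by library size alone, nor without naive KO 1 or naive KO 2. Without any 1 of the iGCB libraries it did not pass either, with an adjusted p of at most 0.22.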

How the data were processed

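RNA-seq of 10 mouse B cell libraries was analysed from the deposited gene counts, which the authors made with featureCounts on mm10, per the submitters' processing notes. No source used here names the aligner, annotation, tool versions or strand setting. Odd values made up 17.7% to 26.9% of counts from 1 to 20, so a count is not an independent fragment. Genes were kept with filterByExpr by group (minimum count 10; 21010 genes), scaled with TMM and fitted over all 4 groups in edgeR 4.0.16 (R 4.3.3; quasi-likelihood, 6 residual degrees of freedom). Two-sided p-values were adjusted by Benjamini-Hochberg across the genes tested, with a threshold of 0.05. CPM are on TMM-scaled totals. Positions, overlaps and exonic lengths came from GENCODE M21 (mm10), and promoters from RefSeq (GRCm38.p6). Self-tests ran on simulated data.

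The members and lists were chosen with earlier results of these data known. Values per library are given for the catalytic subunits, Psmd4, Psmd14, the chaperones, Psmc3ip, the 3 members with the largest and the 3 with the smallest fold in iGCB against naive WT, and the 2 members with the smallest p in each direction where none passed. Of each pathway list, up to 2 genes past the threshold with the largest fold, and Psmb8, Psmb9, Psmb10, Pomp and Nfe2l1, are named, except for a few genes that are not reported here; other genes were chosen after their values were seen. Paaf1, of the core assembly list, was not matched by symbol. Alternatives were DESeq2 1.42.0, library size alone, no low-count filter, a replicate block, a fit of the compared groups, a term for the female pair and leaving out each library.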

Additional observations from a re-analysis of the deposited data

How the results depend on the processing

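The counts of members higher in iGCB cells stayed within 1.5 times of 29 (WT) and 28 (KO) under every alternative run, at 24 to 30 and 21 to 29 over the fits that left out 1 library. All 14 core genes were called in 10 of 15 alternatives in WT and 12 of 15 in KO, with 13 and 12 at the fewest. In iGCB against naive WT, the count of members lower was 0 with DESeq2 and 0 with only the compared groups, and 0 to 1 over the fits without 1 library, where the Psmd10 call was lost without naive WT 2, any 1 of the iGCB WT libraries or iGCB KO 2. Its fitted log2 values, which depend on the prior count against a group at 0 and are no measure of size, ran from -9.56 to 0, the last without naive WT 2, where both WT groups had 0 counts. Without the low-count filter, Psmd10 was called for KO against WT in iGCB cells (1 member higher, adjusted p = 5.14e-07) and for the difference of the KO effects (1 member higher, adjusted p = 0.007). Over fits without 1 library, the cap median in WT ran from 0.76 to 1.23, the core median of KO against WT in naive cells from -0.33 to 0.13, and the cap median of the difference of the KO effects from -0.38 to 0.10. The cause of these moves was not tested.

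With the median coding transcript length in place of the exonic length, an alternative added after seeing the data, the core medians were 41.9, 39.1, 138 and 128 CPM per kb in naive WT, naive KO, iGCB WT and iGCB KO, and the cap subunit medians 37.8, 33.5, 84.3 and 75.5. The labels do not say what libraries of the same number share. In naive cells they shared a sex in each pair. After removal of group means, same-numbered libraries correlated over 7378 genes at 0.67 in naive cells and at 0.54, -0.18 and 0.02 in iGCB cells. Between the stages they correlated at -0.14, 0.15, -0.14 and -0.23. With 2 libraries in a naive group, the deviations from its mean mirror each other. Both naive pairs therefore give the same 0.67, which is 1 value and not agreement of separate pairs. The iGCB groups are larger, so their values are not directly comparable with it. With the replicate block, 26 members were higher in WT and 27 in KO, 1 member was lower in KO (Psmd10, adjusted p = 0.0161), and 0 were called for KO against WT. A term for the female naive pair also gave 0 for KO against WT in naive cells and for the difference of the KO effects. That term was not fitted for iGCB against naive. Naive groups held 2 libraries each, which limits the precision of every comparison that uses them.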
